A study of Mus musculus with 2 samples.

Results

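The 39 protein-coding Hox genes of the mouse were examined in a chromatin map made with an antibody to TCF-1, the HMG-box protein that Tcf7 encodes. They were chosen by symbol (Hoxa, Hoxb, Hoxc or Hoxd followed by a number) from the 21887 protein-coding genes of the RefSeq table for GRCm38.p6, the mm10 build. A gene body with 10 kb on either side is called the locus of that gene. Islands are the stretches of clustered reads that the authors called, and an island was assigned to a cluster when it overlapped a locus of the cluster by at least 1 bp. Of the 19531 islands in the table, 21 met this rule. HoxA, with 11 genes, held 7 of them, HoxB, with 10 genes, held 6, HoxC, with 9 genes, held 5, and HoxD, with 9 genes, held 3.

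Hox genes encode homeodomain transcription factors that give cells their position along the body axis. They sit in clusters in which the genes point the same way and the gene number follows the order along the chromosome. Low numbers are used early and towards the head, and high numbers late and towards the tail. Genes of different clusters with the same number are paralogues. In blood-forming cells several HoxA and HoxB genes are active in stem cells and progenitors and are turned down as the cells mature. Polycomb proteins keep silent Hox genes silent, and trithorax proteins keep active ones active.

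The assay was ChIC-seq (chromatin immunocleavage sequencing): the antibody carries micrococcal nuclease, which cuts DNA near the protein it binds. The cells were C57BL/6 lymphoid tissue inducer (LTi) cells, which are innate lymphocytes, sorted as lineage-negative CD127+ CCR6+ cells that lacked KLRG1, NK1.1 and NKp46. There were 2 libraries, each from 500 cells. The first came from Tcf7+/+ cells of Peyer's patches and the second from Tcf7fl/fl-VavCre cells of the small intestine lamina propria, in which Cre under a Vav promoter, active across blood cells, deletes the floxed Tcf7. Genotype and tissue cannot be told apart, the number of animals is not given in the sources used here, and there are no replicates. The table has a peak and a control column for each island, and neither header names a sample. Values below are those of the peak library or the control library, so genotypes are not ranked, and the deletion of Tcf7 was not checked. A fold is the peak-library count over the control-library count after scaling the latter by 1.997, the factor in the authors' folds. It compares these 2 libraries only. The islands held 483771 peak-library and 189291 control-library reads. Depth outside the islands is unknown. Intervals are exact 95% intervals (Clopper-Pearson) and cover counting error only, since there is 1 library per group. They take reads as independent. Reads copied by PCR are not independent molecules, so the intervals may be too narrow even for counting error. Islands were called where peak-library reads cluster, so folds, their intervals and p-values at islands lean upwards through that selection.

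Labels were set against marker genes, although islands do not measure expression and so cannot check a cell type. All 6 LTi and ILC3 genes used (Kit, Il7r, Il1r1, Ccr6, Id2 and Il23r) had an island in their locus, and all 6 had one with an FDR of 0.05 or less. Of 4 epithelial genes Cdh1 and Krt8 had 1 island each and Epcam and Vil1 had none, and all 3 B cell genes used (Ms4a1, Pax5 and Cd79a) had an island. Counting islands up to an FDR of 0.05 alone, 1 of 4 epithelial and 2 of 3 B cell genes had one. Of all protein-coding genes 54.7% had an island and 40.3% had one at that FDR. The summed reads were 958 against 217 for the LTi and ILC3 genes, 25 against 7 for the epithelial genes and 138 against 49 for the B cell genes. Whether other cells in the sorts contributed to the Hox islands was not tested.

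The pooled folds of the clusters ran from 1.62 to 17.5, and 1 of their 6 pairs, HoxD and HoxB, differed by test. HoxD was at one end, with 35 peak-library against 1 control-library reads and a pooled fold of 17.5 (2.95 to 712). HoxB was at the other, where 100 against 31 reads gave 1.62 (1.07 to 2.5). HoxA had 102 against 14 reads, a fold of 3.65 (2.08 to 6.91), and HoxC had 65 against 9, a fold of 3.62 (1.79 to 8.26). Outside the Hox clusters, 19492 islands lay on nuclear chromosomes and held under 200 peak-library reads, and their pooled fold was 1.62 (1.61 to 1.63). This value lay inside the interval of HoxB and below the intervals of HoxA, HoxC and HoxD. The comparison was not matched for reads: median peak-library and control-library reads were 13 and 2 at Hox islands and 16 and 4 at these nuclear islands. The median of the authors' folds at these nuclear islands was 1.84, which lies inside the interval of HoxC. Over all 21 Hox islands the sums were 302 against 55 reads and the fold 2.75 (2.06 to 3.74).

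**Figure D1:**
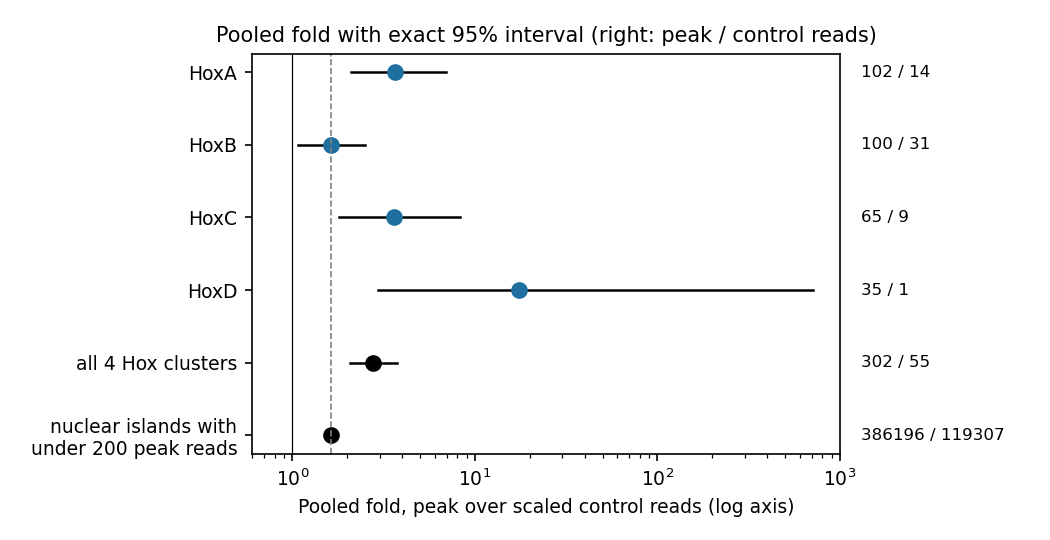
Pooled fold of peak-library over scaled control-library reads (log axis) for each Hox cluster, the 4 clusters together and all islands on nuclear chromosomes that held under 200 peak-library reads. Points are pooled folds, bars exact 95% intervals, the solid line a fold of 1, the dashed line the fold of 1.62 of the nuclear islands, and the figures at the right the reads. The bar of HoxB crosses the dashed line, and those of HoxA, HoxC and HoxD lie to its right.

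Reads of the 6 pairs of clusters were compared by Fisher's exact test, two-sided, with Benjamini-Hochberg adjustment over the 6. The test takes single reads as its units, so it describes these libraries and not the genotypes. HoxD and HoxB differed: the fold of HoxD was 10.8 times that of HoxB (1.66 to 455, adjusted p = 0.0204, Fisher's exact test). This difference rests on few control reads. Without the island with most peak-library reads of each cluster, HoxD had 21 against 1 and HoxB 64 against 18 reads, and the adjusted p by the same exact test was 0.411. With islands in gene bodies alone it was 0.715. The other pairs did not pass. The fold of HoxA was 2.26 times that of HoxB (1.09 to 4.87, adjusted p = 0.0628, exact test), and that of HoxC was 2.24 times that of HoxB (0.958 to 5.69, adjusted p = 0.131, exact test). HoxA and HoxC had a ratio of 1.01 (0.363 to 2.67), an interval that allows a difference of more than 2-fold either way. HoxD stood at 4.8 times HoxA (0.678 to 209) and 4.85 times HoxC (0.62 to 218), with adjusted p of 0.183 and 0.194 by the exact test.

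Islands are called where peak-library reads cluster, and each held at least 7 of them, so the density in that library is set in part by the selection of islands. Peak-library reads per kb of island were 9.11 at HoxA, 8.62 at HoxB, 8.78 at HoxC and 9.72 at HoxD. Control-library reads per kb of island were 1.25, 2.67, 1.22 and 0.278 in the same order, and the last value rests on 1 read. The same nuclear islands with the Hox islands included held 12 peak-library and 3.71 control-library reads per kb, so each cluster lay below them in both libraries. The median Hox island had 13 peak-library and 2 control-library reads, where the median over all islands was 16 and 4. Of the 21 islands, 15 lay below the median of peak-library reads and 16 below that of control-library reads. The median of the authors' folds was 4.51 at Hox islands and 1.84 over all islands. Median widths were both 1400 bp, and Hox islands ran from 200 to 5800 bp.

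**Figure D2:**
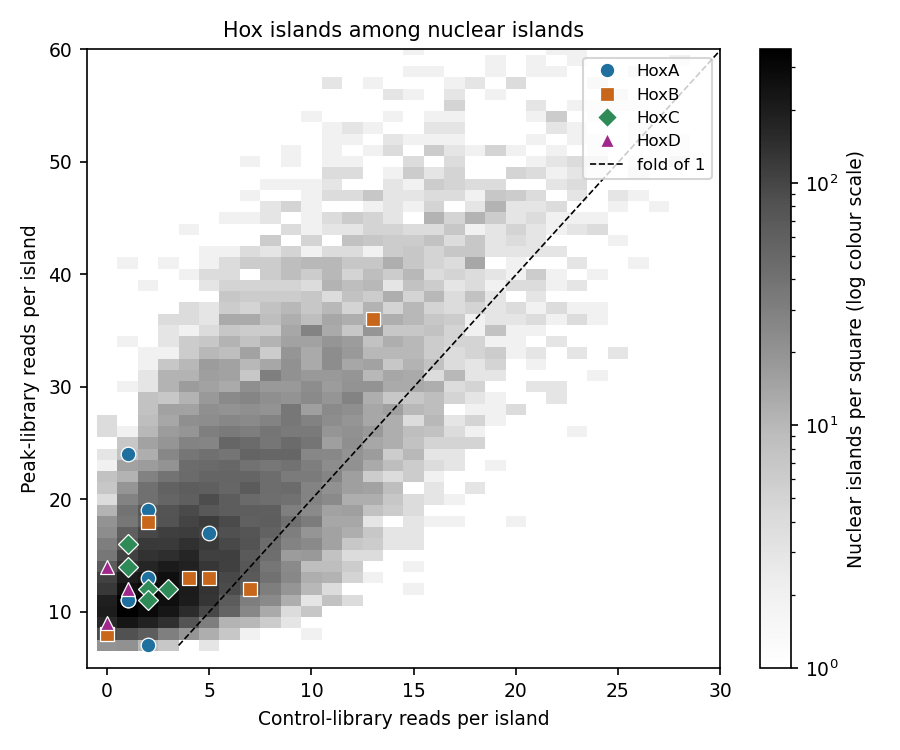
Peak-library reads (vertical axis) against control-library reads (horizontal axis) of the 21 Hox islands, coloured by cluster, over the numbers of nuclear islands under 200 peak-library reads at each pair of values (grey, log colour scale; islands beyond the axes are not drawn). The dashed line is a fold of 1, and some Hox islands share a point. Most Hox islands sit at 3 or fewer control-library reads, with the HoxB islands spread furthest to the right and 1 of them below the line.

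By the caller's FDR, which takes the control count as known without error, 17 of the 21 Hox islands (81%) reached 0.05 or less, against 62.5% of all islands. All 5 HoxC and all 3 HoxD islands did, as did 6 of 7 at HoxA and 3 of 6 at HoxB. At 1e-05 or less there were 11 Hox islands (52.4%), against 20.7% of all islands. An exact one-sided binomial test that counts the error of both libraries, adjusted by Benjamini-Hochberg over all islands, passed 0 Hox islands and 0.430% of all islands. At an unadjusted p below 0.05 it passed 9 Hox islands, against 24.1% of all. After adjustment no single Hox island was therefore told from a fold of 1 by this test. Islands without a control read numbered 3 of 21 (14.3%), against 5.69% of all islands, and 1 of 21 had a fold below 1, against 10.2%.

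Hox clusters are short and packed with genes, and so the count of genes depends on the flanks. Of the 39 Hox genes, 29 (74.4%) had an island in their locus, against 54.7% of all protein-coding genes, and 26 (66.7%) had one with an FDR of 0.05 or less, against 40.3%. The loci overlap within a cluster and share islands, so the 29 genes rest on 21 islands. In the gene body alone 11 Hox genes (28.2%) had an island, against 45.7% of all protein-coding genes. The median body was 3737 bp for Hox genes and 17169 bp for all protein-coding genes. Merged over their overlaps, the Hox loci covered 0.517 Mb with 40.6 islands per Mb, and the loci of all protein-coding genes held 13 per Mb. The density was 55.8 per Mb at HoxA, 43.1 at HoxB, 36.8 at HoxC and 25.7 at HoxD. These densities were not matched for how closely genes are packed. The Hox loci held 39 genes and 21 islands in 0.517 Mb. All protein-coding loci held 21887 genes and 16795 islands in 1290 Mb. Per gene, the Hox loci therefore held fewer islands, not more. No Hox island had a protein-coding gene from outside the clusters within 10 kb.

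By gene number, every Hox gene of groups 4 to 8, 15 in all, had an island in its locus. Of the 8 genes of groups 1 to 3, 6 had one, and of the 16 genes of groups 9 to 13, 8 had one. In the gene body alone the order was another: 4 of 8 genes of groups 1 to 3, 5 of 15 of groups 4 to 8 and 2 of 16 of groups 9 to 13 had an island. The count of groups 4 to 8 thus rests on flanks that overlap and share islands. The 10 genes without an island were Hoxa13, Hoxb1, Hoxb2, Hoxc9, Hoxc13 and the whole run from Hoxd9 to Hoxd13. Group 3 had an island inside the gene body in each of its 3 members, Hoxa3, Hoxb3 and Hoxd3, which are also the longest Hox genes in the table. Group 13, the most posterior, had an island at Hoxb13 only among its 4 members. Near the limit of 10 kb, Hoxd1 was counted with an island 8980 bp away and Hoxc9 was not, with its nearest island 10432 bp away.

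**Figure D3:**
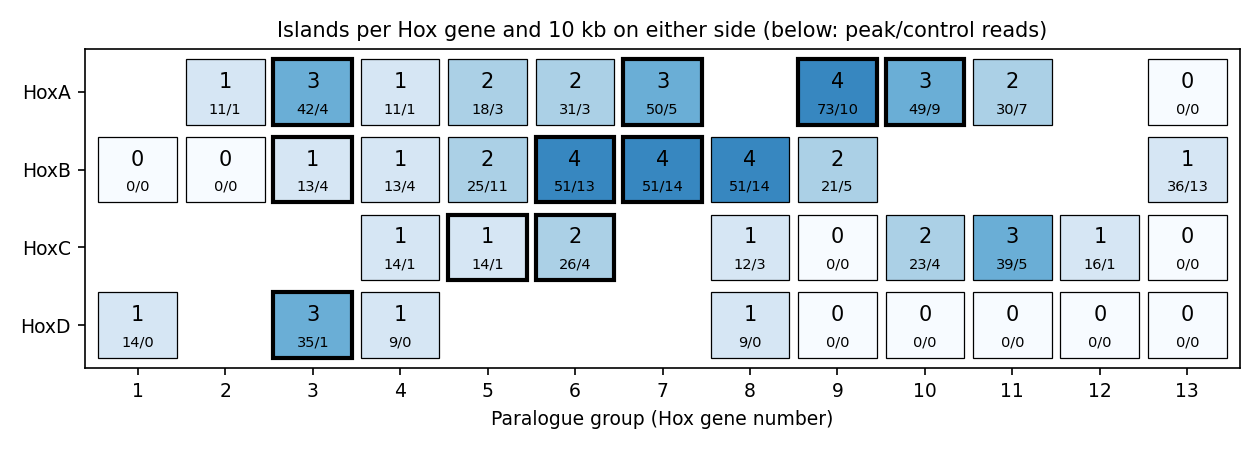
Number of islands in the locus of 38 of the 39 Hox genes (large figures, darker blue for more), by cluster (rows) and paralogue group (columns), with peak-library and control-library reads of those islands below. A thick frame marks an island inside the gene body, the other empty places beside the gene not drawn are gene numbers that a cluster lacks, and neighbours share islands. Groups 4 to 8 have an island in every gene, and HoxD is at 0 from group 9 to 13.

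HoxA had its islands in the gene bodies, 7 of 7, and the last 4 followed each other from Hoxa7 to Hoxa10. Hoxa7, Hoxa9 and Hoxa10 are known from blood progenitors, and Hoxa9 together with Meis1 is known as a driver of myeloid leukaemia. The Hoxa7 island at chr6:52216201-52218600 had 24 peak-library reads against 1 control-library read, the most peak-library reads of this cluster, and a fold of 12 (1.96 to 494) (binomial exact test, unadjusted p = 0.000528, adjusted p = 0.0645). In Hoxa9 the island at chr6:52224001-52226800 had 19 against 2 reads (fold 4.76, 1.15 to 42.1). Hoxa10 held 2 islands, and they differed in their control reads. The one at chr6:52231001-52232800, over its 3′ part, had 17 against 5 reads (fold 1.7, 0.603 to 5.9), while the one at chr6:52236201-52237800 had 13 against 2 (fold 3.26, 0.737 to 29.7). Both intervals include 1.

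Towards the low-numbered end of HoxA the islands held fewer peak-library reads. They were also narrower, and reads per kb of island did not fall in the same way. Inside Hoxa3, and 1098 bp from the 5′ end of Hoxa4, the island at chr6:52192801-52193800 had 11 against 1 reads (fold 5.51, 0.801 to 237). The narrowest Hox island, 200 bp at chr6:52211801-52212000 near the 5′ end of Hoxa3, had 7 against 2 reads (fold 1.75, 0.334 to 17.3). It was the 1 HoxA island that missed an FDR of 0.05 (FDR 0.0757). Hoxa2, Hoxa4, Hoxa5, Hoxa6 and Hoxa11 had islands within 10 kb but none in the body, and Hoxa13, a limb and genital tract gene, was 21053 bp from the nearest.

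The Hoxa7 island is the one that reached into a promoter window of the RefSeq table (250 bases before to 50 after a transcription start). That table held 24 windows of 22 Hox genes, and not the others. The window of Hoxa7 lies at chr6:52218524-52218823 on the minus strand of GRCm38.p6, and the 77 bases inside the island are in capitals:
Hoxa7: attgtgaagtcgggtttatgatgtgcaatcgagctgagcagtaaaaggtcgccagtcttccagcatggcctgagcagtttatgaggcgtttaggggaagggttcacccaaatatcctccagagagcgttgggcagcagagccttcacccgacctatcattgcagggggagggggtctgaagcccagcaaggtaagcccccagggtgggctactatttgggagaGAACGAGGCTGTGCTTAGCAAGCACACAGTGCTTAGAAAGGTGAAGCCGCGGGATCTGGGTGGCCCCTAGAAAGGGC

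The letters CTTTGAT, a form of the site that TCF factors recognise, were searched on both strands. They occurred in 1225 of all 32851 windows (3.73%) and in 1 of the 24 Hox windows (4.17%). The Hoxa7 window held neither CTTTGAT nor the shorter CTTTG, which lies within it and stood in 53.9% of all windows and in 15 Hox windows (62.5%). The 1 Hox window with CTTTGAT was that of Hoxd8, picked after the matches were seen and shown for its tandem copies, which begin 153 and 143 bases before the start and are in capitals. It lies at chr2:74704365-74704664 on the plus strand, 8537 bp from the nearest island, so the copies stand outside the islands:
Hoxd8: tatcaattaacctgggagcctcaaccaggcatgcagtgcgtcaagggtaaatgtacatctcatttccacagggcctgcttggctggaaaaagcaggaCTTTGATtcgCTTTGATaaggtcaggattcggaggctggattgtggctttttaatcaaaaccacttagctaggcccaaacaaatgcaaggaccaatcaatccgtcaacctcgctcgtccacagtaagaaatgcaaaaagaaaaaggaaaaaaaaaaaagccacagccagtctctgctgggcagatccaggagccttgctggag

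Hox windows were rich in CG pairs, with a median of 14.5 against 7 over all windows. Of the 24 windows 20 were at or above that median. They ran from 4 pairs, in windows of Hoxa9, Hoxd4 and Hoxd11, to 45 in that of Hoxa13, a gene without an island. The Hoxa7 window held 9.

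Folds of the HoxB islands lay above 1 at all but 1 island, whose interval included 1. The fewest control-library reads were in the islands of Hoxb7, a gene of the trunk region: 1 at chr11:96286401-96286800 with 8 against 0 reads and 1 at chr11:96288801-96290600 with 18 against 2 reads, a fold of 4.51 (1.08 to 40.1). Against a floor of 3 control-library reads, the first had a fold of 1.34, which takes its 8 reads as known. Its exact lower bound, which also counts the error of the 8 reads, was 0.855. Between Hoxb9 and Hoxb8 the island at chr11:96278001-96279400 had 13 against 5 reads (fold 1.3, 0.436 to 4.66). The Hoxb6 island at chr11:96294201-96295000 had 12 against 7 reads, and its fold of 0.859 (0.312 to 2.57) was the one below 1 among Hox islands.

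Hoxb4 is known for expanding blood stem cells when it is overexpressed. Inside Hoxb3 an island at chr11:96310801-96312200 had 13 against 4 reads (fold 1.63, 0.503 to 6.85), and it was the sole island within 10 kb of Hoxb4. It missed the caller's threshold (FDR 0.0535). The island with most reads at any Hox locus, 36 against 13, lay at chr11:96199201-96205000, 2591 bp from Hoxb13 on the side of Hoxb9. Hoxb13 is a gene of the hindgut and prostate. The island overlapped the non-coding genes Gm30134 and Gm11538, with a fold of 1.39 (0.718 to 2.85). It was also the widest Hox island, and a gap of 73000 bp without islands separated it from the rest of HoxB. Hoxb1 and Hoxb2 were 53546 and 39432 bp from the nearest HoxB island. Leaving out the island near Hoxb13 alone, a choice made after seeing the data, left the HoxB fold below that of HoxD (adjusted p = 0.0418, Fisher's exact test).

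HoxC had 2 of its 5 islands in Hox gene bodies and 3 between genes. The one with most reads lay over Hotair, a long non-coding RNA gene between Hoxc12 and Hoxc11, at chr15:102945401-102947800, with 16 against 1 reads (fold 8.01, 1.24 to 336). The island at chr15:103013201-103014600 covered the 5′ end of Hoxc5 and had 14 against 1 reads, a fold of 7.01 (1.07 to 296). Both intervals lie above 1, at islands that were called on the same peak-library reads. The other HoxC islands had 2 or 3 control reads. At Hoxc6 the island at chr15:102999001-103000000 had 12 against 3 reads (fold 2, 0.541 to 11.1). Between Hoxc11 and Hoxc10, genes of the lumbar and hindlimb region, chr15:102958801-102960400 had 12 against 2 (fold 3, 0.669 to 27.6) and chr15:102965601-102966600, ending 196 bp before Hoxc10, had 11 against 2 (fold 2.75, 0.601 to 25.6). Hoxc13, a gene of hair and nail, had no island in its locus.

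HoxD had its islands towards its low-numbered end, over 40.8 kb of a cluster of 96.9 kb. The island at chr2:74752801-74754000 had 14 against 0 reads. Its fold was 2.34 against the floor of 3 control-library reads, with an exact lower bound of 1.66. The second, at chr2:74748801-74750000, had 12 against 1 reads and a fold of 6.01 (0.889 to 257). Both lay over Haglr, a long non-coding RNA gene between Hoxd3 and Hoxd1. The third, at chr2:74713201-74714400 inside Hoxd3 and over the antisense gene Hoxd3os1, had 9 against 0 reads. Its fold against the same floor was 1.5, and its exact lower bound of 0.988 lies below 1. Hoxd9 to Hoxd13, genes of limb and digit patterning, lay 12993 to 41598 bp from the nearest island.

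**Figure D4:**
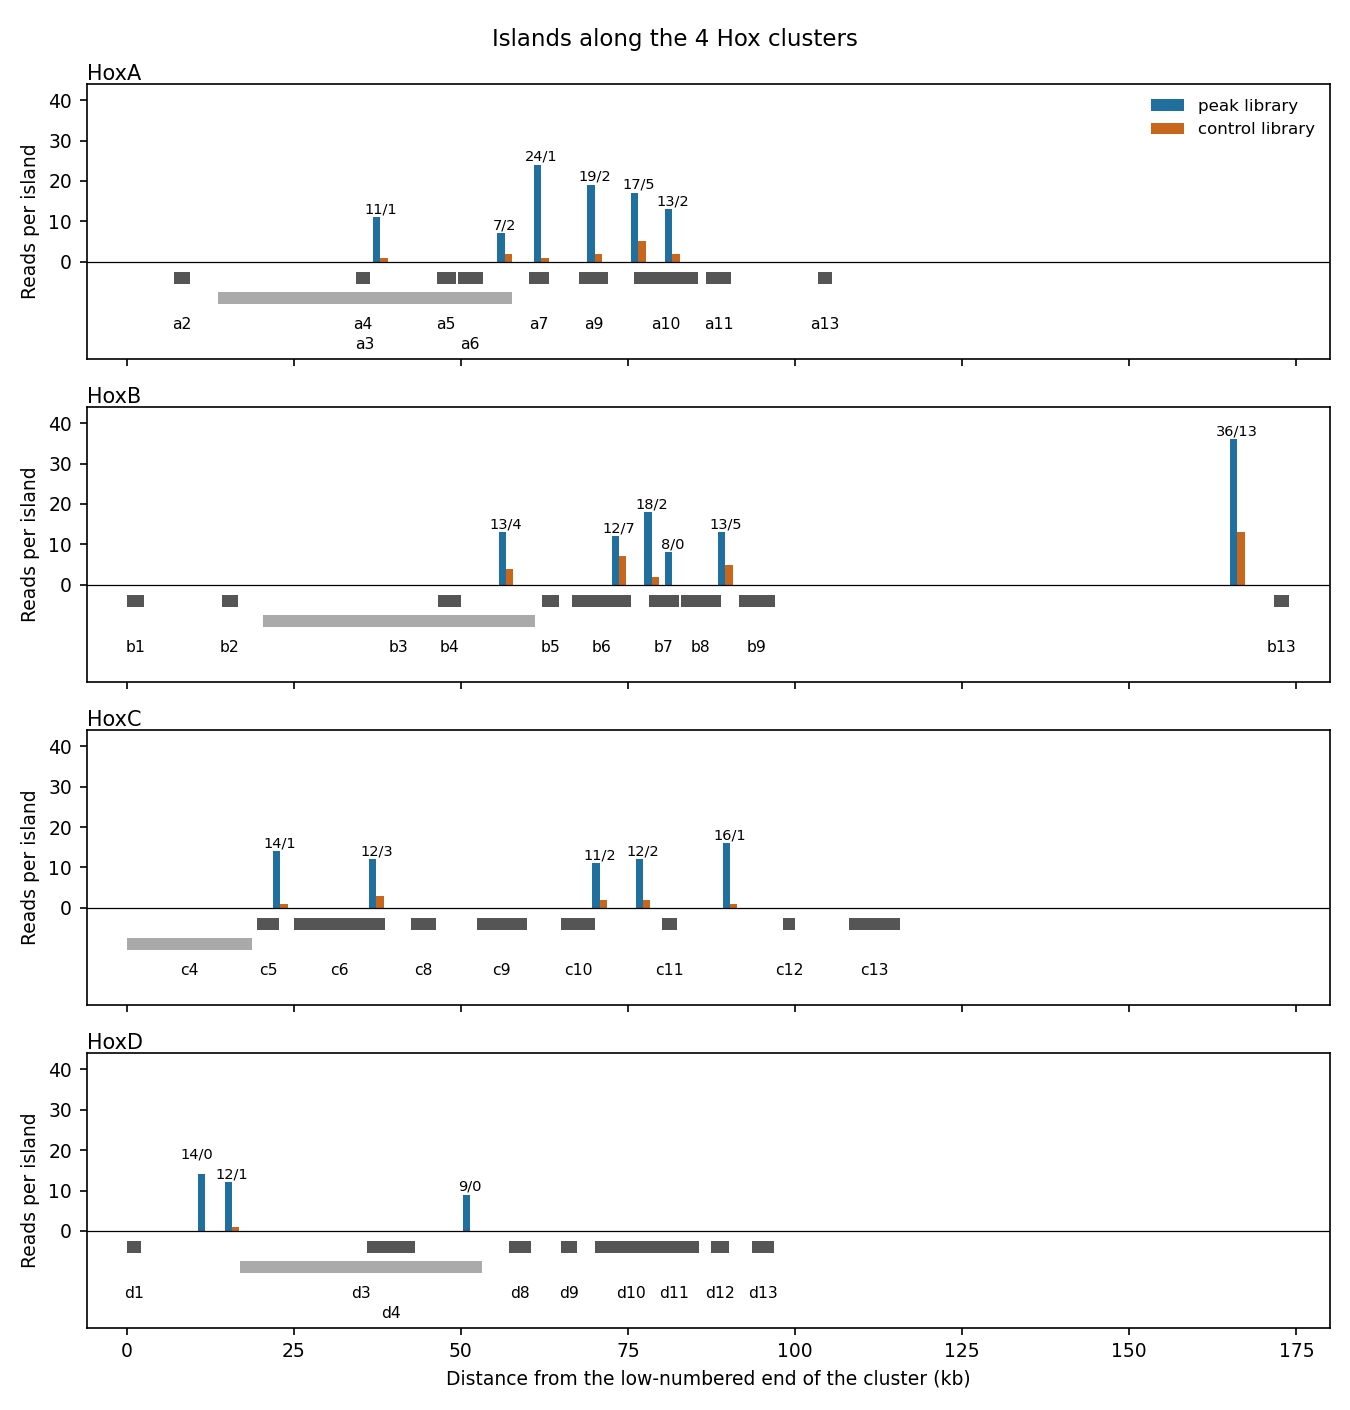
Reads of each island (vertical axis; blue for the peak library, orange for the control library, with both counts above the bars) for 20 of the 21 islands and 38 of the 39 genes along the Hox clusters, by distance in kb from the low-numbered end. Grey blocks are gene bodies, with the longest genes in a lighter row below, and bars are drawn at the middle of an island, not to its width. HoxD has 3 islands over 40.8 kb towards its Hoxd1 end and none over Hoxd9 to Hoxd13, and the HoxB island with 36 against 13 reads stands alone near Hoxb13.

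Gene starts were taken as the outermost 5′ end of each gene, and the share of all islands at such ends was not measured. The 5′ ends of Hoxa7 and Hoxc5 lay inside an island, and 7 of 21 islands were within 1 kb of a Hox 5′ end (Hoxa7, Hoxa9, Hoxb7, Hoxb8, Hoxc5, Hoxc6 and Hoxc10). For Hoxb8 this holds for the outermost end only, since its promoter window was 2255 bp from the nearest island. Within 1 kb of either end of a protein-coding gene were 10 of 21 (47.6%), against 42.1% of all islands. Genes that do not code for protein were overlapped by 10 of the 21 (47.6%), against 16.1% of all islands. How much of the Hox loci such genes cover was not measured, and it bears on this contrast. Of 33 such genes in and within 10 kb of the clusters, 12 were overlapped by an island, against 9.65% of all genes of this kind. The makeup differs, since 26 of the 33 were long non-coding RNA genes and the genes of the whole table also include many pseudogenes and small RNA genes.

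The clusters also hold microRNA genes, whose products are known to repress Hox mRNAs. None of the 6 lay in an island. The mature sequences are shown because paralogues with the same seed (bases 2 to 8, in capitals) sit in different clusters and at different distances from the islands:
miR-196b-5p: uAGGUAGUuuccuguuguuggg
miR-196a-5p: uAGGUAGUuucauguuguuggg
miR-10a-5p: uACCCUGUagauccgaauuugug
miR-10b-5p: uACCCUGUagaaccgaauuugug
Mir196b in HoxA was 836 bp from the island with 17 against 5 reads. The genes for miR-196a, Mir196a-1 in HoxB and Mir196a-2 in HoxC, were 12736 and 6750 bp from an island. Mir10a in HoxB was 4965 bp and Mir10b in HoxD 11670 bp away. Mir615, with another seed, was 310 bp from the Hoxc5 island.

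Distances from each cluster to the next island outside it are given without the usual spacing of islands, which was not measured. Beyond HoxD the next island lay 88625 bp away on the Hoxd13 side and 819659 bp away on the Hoxd1 side. For HoxA these distances were 142167 bp on the side of Skap2 and 315921 bp on the Hoxa13 side. HoxB had its next islands 68947 bp away on the Hoxb1 side and 117916 bp away on the Hoxb13 side, and HoxC 128745 bp away on the Hoxc4 side and 198531 bp away on the Hoxc13 side. The even-skipped homeobox genes Evx1 and Evx2, next to HoxA and HoxD, had no island in their loci. Skap2, beside HoxA, had 3 islands and 53 against 15 reads (fold 1.77, 0.983 to 3.38), and Skap1, beside HoxB, had 3 with 55 against 10 (fold 2.75, 1.39 to 6.06). Both encode adaptors of immune cell signalling. Ttll6 and Calcoco2, the neighbours at the Hoxb13 end, had none.

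Dlx and Irx genes are homeobox genes that also lie in clusters. Of the 6 Dlx and 6 Irx genes 1 had an island, against the 54.7% of all protein-coding genes given above. It was Irx5, with 25 against 4 reads (fold 3.13, 1.08 to 12.4). Dlx1, Dlx2, Irx1 and Irx2 were among those without one.

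TALE cofactors are homeodomain proteins that bind DNA together with Hox proteins. Islands were found at 6 of the 9, for 4 of them with an FDR no higher than 0.05. These shares are near the 54.7% and 40.3% of all protein-coding genes, so the counts say nothing particular about the cofactors. Meis1 had 4 islands, all at that FDR, and 75 against 13 reads (fold 2.89, 1.59 to 5.68). Pbx2 had 130 against 61 (fold 1.07, 0.782 to 1.47) and Pbx3 52 against 15 (fold 1.74, 0.963 to 3.32), while Meis2 and Meis3 had none. Of the Cdx and ParaHox genes, caudal-type regulators of Hox genes and a related small cluster, 1 of 6 had an island, beside the same 54.7%: Cdx1, with 18 against 3 reads (fold 3, 0.877 to 15.9). Cdx2 and Cdx4 had none.

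All 7 trithorax-side genes had an island, and for 6 the FDR was at most 0.05, beside 54.7% and 40.3% of all protein-coding genes. Kmt2a, the methyltransferase that maintains Hox expression in blood cells, had 95 against 30 reads (fold 1.59, 1.04 to 2.48). Kmt2b had 91 against 28 (fold 1.63, 1.06 to 2.58) and Ash1l 89 against 24 (fold 1.86, 1.17 to 3.05). All 16 Polycomb-side genes had one, 12 of them at that FDR, beside the same 54.7% and 40.3%. Neither the trithorax-side nor the Polycomb-side list was matched to all protein-coding genes for locus length or expression. Jarid2 had 197 against 97 reads (fold 1.02, 0.794 to 1.31), Cbx7 150 against 53 (fold 1.42, 1.03 to 1.98) and Phc2 103 against 30 (fold 1.72, 1.14 to 2.68). Suz12, a core subunit of the Polycomb methyltransferase, had 39 against 5 reads (fold 3.91, 1.54 to 12.7) and was picked after its values were seen. The demethylase genes Kdm6a and Kdm6b, which remove the Polycomb mark, had folds of 1.47 (0.936 to 2.36) and 1.01 (0.794 to 1.28). The pooled folds of the trithorax-side and Polycomb-side lists were 1.42 (1.18 to 1.71) and 1.36 (1.21 to 1.53). The pooled fold of 1.62 of the nuclear islands outside the Hox clusters lay inside the first interval and above the second.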

How the data were processed

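ChIC-seq was made from 2 libraries of fixed LTi cells. The submitters' processing notes name Bowtie2 2.4.2, SICER 2.0 and the mm10 build. How the caller was set and whether duplicates were removed is not given in the sources used here. The read counts per island were deposited by the authors as whole, unscaled reads of a peak and a control library. For each island the authors also deposited a fold (a ratio), a p-value and an FDR. Dividing peak by control reads gave the scaling factor of that fold, 1.997, for islands with a control read. For wider islands without control reads the authors' ratio uses 0.25 control reads in their place and is no bound, so a floor of 3 control reads was used. The fold against that floor takes the peak-library reads as known, and the exact lower bound does not. Positions count from 1.

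Gene positions, promoter windows and microRNAs came from RefSeq tables of GRCm38.p6; exons were not used. The members and lists were chosen with earlier results of these data known. Values are given for 20 of the 21 Hox islands, and for other lists for the 3 genes with most peak-library reads and the first 2 without an island; Suz12 was added. Pooled folds have exact conditional binomial intervals, and cluster pairs were compared by Fisher's exact test (scipy 1.17.1, pandas 2.3.3, Python 3.11.15). The exact binomial test per island was fitted over all 19531 islands with Benjamini-Hochberg adjustment. Alternatives changed the flanks, overlap, thresholds, scaling and the islands used. A few genes are not reported here by name. With 1 library per group no test between genotypes was made.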

Additional observations from a re-analysis of the deposited data

How the results depend on the processing

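No paired analysis was possible because each group has 1 library. With gene bodies alone, 11 Hox genes had an island, HoxC had 2 islands and HoxD had 1. That HoxD island had a fold of 1.5 against the floor of 3 control reads, with an exact lower bound of 0.988. The HoxB against HoxD comparison then gave an adjusted p of 0.715 by Fisher's exact test. The last comparison gave 0.411 without the island with most reads of each cluster, and HoxA then stood at 0.98 times HoxC (adjusted p = 1, exact test), on the other side of 1 from 1.01. With at least 20 peak-library reads 5 Hox genes kept an island, and at an FDR of 0.05 or less HoxB kept 3. Of the 17 Hox islands at an FDR of 0.05 or less, 11 reached 1e-05 and 0 passed the adjusted exact binomial test. Without scaling the folds were 7.29 at HoxA and 3.23 at HoxB. Setting the table's totals equal lowers each fold by 0.36 on the log2 scale and reversed no cluster, though the HoxB fold of 1.26 (0.836 to 1.95) then had an interval that includes 1. Leaving out the HoxB island with most reads alone was chosen after seeing the data. At 3 to 7 islands a cluster, depth limits each statement: a fold interval at HoxD runs from 2.95 to 712.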
